A study of Mus musculus with 8 samples.

Results

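The interferon-induced GTPases described here are 10 mouse genes of the guanylate-binding protein (Gbp) and immunity-related GTPase (Irg) families, namely Gbp2, Gbp3, Gbp5, Gbp6, Gbp7, Gbp9, Iigp1, Igtp, Irgm1 and Irgm2. They were taken by name: the Ensembl identifiers of the deposited count rows were matched to the GENCODE M21 annotation of mm10, and each of the 10 symbols had a single row among 55487 gene rows. RNA of dorsal skin epidermis from wild-type FVB mice, 7 to 8 weeks old, was the source of 8 libraries that fall into 4 groups of 2. DMBA, a polycyclic hydrocarbon that initiates skin tumours, was applied once at 1 mg/ml in 100 µl of acetone in the DMBA group, which was harvested on day 10. The DMBA/TPA group received the same single application and then TPA, a phorbol ester used as a tumour promoter, at 0.1 mg/ml 2 times per week until harvest on day 52. Control DMBA and Control DMBA TPA are the acetone-treated groups that the titles assign to each regimen. The labels state no harvest day for the acetone animals. The epidermis was peeled from the dermis after Dispase digestion, so each library is a mixture of keratinocytes with whatever other cells stayed with the sheet. Nothing in the labels says that the 2 libraries of a group came from separate animals. The p-values below therefore measure the spread between these libraries only, which may be technical.

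Interferon gamma, and more weakly type I interferons, switch on these GTPases through JAK-STAT signalling and the transcription factor IRF1. GBPs assemble as coats on the membranes of intracellular bacteria and parasite vacuoles and help to trigger inflammasome signalling. Effector IRGs such as Iigp1 load onto and disrupt parasite vacuoles, while the regulatory IRGs Igtp, Irgm1 and Irgm2 sit on host membranes and keep the effectors inactive there. In skin both families belong to the interferon programme that keratinocytes and immune cells can express.

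Of the 10 genes, 9 lie in clusters on 3 chromosomes (coordinates in mm10). Gbp5 (chr3:142493978-142522344), Gbp7 (chr3:142530342-142550149), Gbp3 (chr3:142560026-142573209) and Gbp2 (chr3:142620602-142638008) follow each other on the plus strand of chromosome 3. Gbp9 (chr5:105077630-105139539) and Gbp6 (chr5:105270702-105293698) lie on the minus strand of chromosome 5. Igtp (chr11:58199556-58207591) and Irgm2 (chr11:58199618-58222782) overlap on the plus strand of chromosome 11, and Irgm1 (chr11:48861968-48871683) lies on its minus strand. Igtp and Irgm2 share 162 exonic bases, which are 8.01% of the Igtp exons and 4.39% of those of Irgm2, so the values of this pair are not fully separate. The exons of Gbp6 share 29% of their bases with the annotated gene Gm43302 and those of Gbp7 share 11.3% with the pseudogene Gm43802, both of which had 0 counts in all libraries. Gbp9 shares 60 exonic bases (1.16% of its exons) with Gbp4 and 60 with Gbp8, which had 574 and 51 counts in total. GBP and IRG genes are also similar in sequence to each other, and how the authors treated reads that match several genes is not given in the sources used here.

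RefSeq promoter windows of 300 bases (GRCm38.p6, the C57BL/6J reference; 250 bases before and 50 after the start) were found for 7 of the 10 genes: Gbp2, Gbp3, Gbp5, Gbp7, Igtp, Irgm1 and Irgm2. They are shown because these genes rose or were highest in the same libraries and because the known interferon elements of this family lie next to the start. On both strands, the windows were searched for the core letters of the interferon-stimulated response element (ISRE), a pair of GAAA separated by 2 bases of any kind or the same on the other strand with TTTC, and for those of the gamma-activated site (GAS), TTCNNNGAA. An ISRE-like match was present in 7 of the 7 genes with a window, while 3.44% of all 32841 windows in the table held one. A GAS-like match was present in 4 of the 7 (Gbp5, Gbp7, Igtp and Irgm2), against 8.3% of all windows. Of the 10 other GBP and IRG genes with a window, 6 held an ISRE-like and 4 a GAS-like match. Tgtp2 and 9930111J21Rik1, which were not called in DMBA, were among those with an ISRE-like match. The matches are therefore not particular to the genes that rose. The stretches below run 5′ to 3′ on the strand of the gene from position -110, or -170 for Gbp5, to position 10 counted from the start, with the matched letters in capitals.
Gbp2 (chr3:142620553-142620672, + strand): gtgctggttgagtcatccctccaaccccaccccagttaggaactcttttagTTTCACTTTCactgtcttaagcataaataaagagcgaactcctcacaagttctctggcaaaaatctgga
Gbp3 (chr3:142559934-142560053, + strand): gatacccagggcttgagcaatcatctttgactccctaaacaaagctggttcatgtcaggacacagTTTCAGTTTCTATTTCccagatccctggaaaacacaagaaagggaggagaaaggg
Gbp5 (chr3:142496764-142496943, + strand): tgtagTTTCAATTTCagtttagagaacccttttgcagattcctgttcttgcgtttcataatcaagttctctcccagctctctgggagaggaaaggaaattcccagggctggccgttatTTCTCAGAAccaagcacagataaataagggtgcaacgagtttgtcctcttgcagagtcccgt
Gbp7 (chr3:142530226-142530345, + strand): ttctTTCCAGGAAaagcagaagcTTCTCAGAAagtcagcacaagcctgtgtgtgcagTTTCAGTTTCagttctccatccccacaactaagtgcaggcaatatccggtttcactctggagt
Igtp (chr11:58199446-58199565, + strand): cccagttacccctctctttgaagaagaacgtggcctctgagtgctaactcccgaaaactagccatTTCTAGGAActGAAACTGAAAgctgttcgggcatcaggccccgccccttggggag
Irgm2 (chr11:58214867-58214986, + strand): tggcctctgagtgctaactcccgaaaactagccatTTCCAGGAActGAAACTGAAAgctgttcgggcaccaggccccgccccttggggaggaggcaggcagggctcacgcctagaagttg
Irgm1 (chr11:48871411-48871530, - strand): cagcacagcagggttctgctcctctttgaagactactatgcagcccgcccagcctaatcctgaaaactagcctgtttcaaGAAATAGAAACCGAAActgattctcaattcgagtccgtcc

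The ISRE-like letters began at -59 in Gbp2, -53 in Gbp7, -34 in Igtp and -64 in Irgm2. Gbp3 held a pair of overlapping matches beginning at -45 and -39, and Irgm1 a pair beginning at -30 and -24, so each pair reads as 1 run of capitals. In Gbp5 the ISRE-like match lay farther out, at -165, and a GAS-like match began at -52; its other GAS-like match, at -245, is outside the printed stretch. Gbp7 carried GAS-like matches at -106 and -87. In Igtp and Irgm2 a GAS-like match (-45 and -75) came just before the ISRE-like match. Shifted by 30 bases, 88 of 90 bases were equal between positions -80 to 10 of Igtp and -110 to -21 of Irgm2, so this stretch is nearly the same in the 2 overlapping genes. Over all 270 bases aligned at this shift, 184 (68.1%) were equal. The RefSeq start of Irgm2 lies downstream of the Igtp gene, whereas the GENCODE M21 gene begins close to the Igtp start. The printed stretches of Gbp5 and Irgm1 also lie inside their GENCODE M21 genes, so their positions are not counted from the GENCODE start. For Gbp5 the gene begins at 142493978 and the printed stretch at 142496764. Gbp3 has a further window in the table that held neither motif. A match of letters is a description of the sequence and not evidence that a factor was bound.

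**Figure D1:**
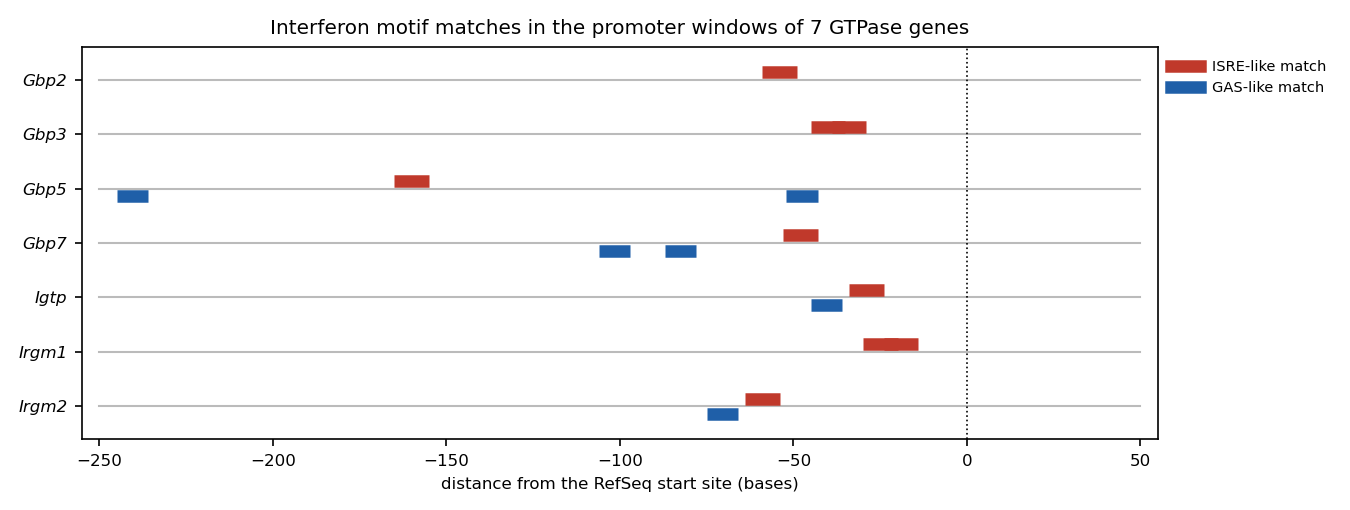
Positions of ISRE-like (upper bars, red) and GAS-like (lower bars, blue) letter matches along the promoter windows of 7 GTPase genes. The x axis is the distance from the RefSeq start in bases. Every gene has an ISRE-like match, and in all but Gbp5 it begins between -64 and -24.

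Gene counts ran from 26300400 to 36002886 per library. After the filter on low counts 19450 genes were tested, 9 of the 10 GTPase genes among them; Gbp6, at 0 to 10 counts per library, was left out. Levels are given as CPM, the read counts relative to a library size scaled by TMM. The 8 keratinocyte markers (such as Krt5, Krt14, Krt1 and Krt10) summed to 24884 to 46460 CPM in the 8 libraries, as the epidermal label has it. In fibroblast markers both DMBA/TPA and Control DMBA stood above the other groups. These markers summed to 1177 and 3294 CPM for DMBA/TPA, 1022 and 477.2 for Control DMBA, and 36.51 to 81.46 in the other 4 libraries.

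Per kilobase of exon, Gbp2 and Igtp were the most abundant of the family in the DMBA group, with mean levels of 8.81 and 8.19 CPM per kb. Irgm2 followed with 4.89, Irgm1 with 3.06, Gbp7 with 2.06 and Iigp1 with 1.78 CPM per kb. Gbp3 (0.652), Gbp9 (0.451), Gbp5 (0.243) and Gbp6 (0.0445) stayed below 1 CPM per kb. In Control DMBA the order at the top was different, with Igtp at 1.92, Gbp2 at 1.44, Irgm2 at 1.42 and Irgm1 at 1.08 CPM per kb, and Iigp1 was near the bottom at 0.0773. All 10 genes were therefore present at low levels in acetone-treated epidermis, and Gbp6 was at the edge of detection.

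The family was higher after DMBA alone. Of the 9 tested genes, 6 rose against Control DMBA at an adjusted p under 0.05 (Gbp2, Gbp7, Iigp1, Igtp, Irgm1 and Irgm2) and none fell, while 0.19% of all tested genes were called higher and 0.0771% lower in this comparison. Both DMBA libraries lay above both Control DMBA libraries for 9 of the 9, as they did for 19.1% of all tested genes. Both DMBA libraries also exceeded the other 6 libraries for 9 of the 9, and for Gbp6 as well; this held for 5.06% of all tested genes. The median log2 fold change of the 9 genes was 2.09, beside -0.006 over all tested genes. Summed over the 10 genes, the level was 28.44 and 22.24 CPM in Control DMBA, 90.71 and 114.9 for DMBA, 35.81 and 28.36 for Control DMBA TPA, and 36.82 and 43.32 for DMBA/TPA. In bulk RNA, fewer cells of a type and less RNA per cell cannot be told apart, here and in every result below.

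The effector Iigp1 (chr18:60376027-60392634, plus strand), which attacks parasite vacuoles, had the largest fold change among the family. It read 0.616 and 0.285 CPM in Control DMBA, 7.56 and 13.2 for DMBA, 2.16 and 1.15 for Control DMBA TPA, and 1.73 and 2.35 for DMBA/TPA. The DMBA libraries were high, the Control DMBA libraries were the lowest of all, and the other 4 overlapped each other. The log2 fold change of DMBA against Control DMBA was 4.52 ± 0.49 (SE; 22.9-fold; edgeR adjusted p = 0.0187). Its size depended on which acetone group served as control: against Control DMBA TPA the log2 fold change was 2.66 and still called. Iigp1 supplied 2.16% and 1.28% of the summed level of the 10 genes in Control DMBA, and 8.34% and 11.5% in DMBA.

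The 3 regulatory IRGs rose less and more evenly. Igtp, also known as Irgm3, read 4.37 and 3.39 CPM in Control DMBA, 14.8 and 18.3 for DMBA, 5.13 and 5.50 for Control DMBA TPA, and 5.39 and 7.09 for DMBA/TPA. Its 6 libraries outside the DMBA group fell in a narrow band well below the DMBA pair. The log2 fold change for DMBA was 2.09 ± 0.22 (4.27-fold; edgeR adjusted p = 0.0168). Irgm1, whose loss in mice impairs both pathogen control and the restraint of interferon responses, read 6.24 and 6.30 CPM in Control DMBA, 16.7 and 18.8 for DMBA, 9.55 and 7.50 for Control DMBA TPA, and 7.67 and 7.76 for DMBA/TPA. Again only the DMBA libraries were high, and the log2 fold change was 1.50 ± 0.17 (2.83-fold; edgeR adjusted p = 0.0205). Irgm2 read 6.04 and 4.42 CPM in Control DMBA, 16.0 and 20.1 for DMBA, 5.37 and 3.96 for Control DMBA TPA, and 7.20 and 7.52 for DMBA/TPA. The acetone groups overlapped, DMBA/TPA lay just above them and DMBA far above. Its log2 fold change for DMBA was 1.79 ± 0.23 (3.45-fold; edgeR adjusted p = 0.0279). With the counts of Igtp and Irgm2 added together, because the genes overlap, the value was 1.92 (edgeR adjusted p = 0.0155).

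Among the GBPs of chromosome 3, Gbp2, which is recruited to parasite vacuoles in mouse cells, read 4.66 and 2.60 CPM in Control DMBA, 19.2 and 25.1 for DMBA, 5.82 and 3.68 for Control DMBA TPA, and 6.22 and 7.76 for DMBA/TPA. The DMBA libraries lay well above all others, and the acetone groups overlapped. The log2 fold change for DMBA was 2.61 ± 0.33 (6.11-fold; edgeR adjusted p = 0.0272). Gbp7, reported in mouse macrophages to act with the phagocyte oxidase, read 4.40 and 3.19 CPM in Control DMBA, 10.1 and 13.0 for DMBA, 5.09 and 4.86 for Control DMBA TPA, and 5.74 and 5.99 for DMBA/TPA. No groups overlapped: Control DMBA was lowest, followed by Control DMBA TPA, DMBA/TPA and, far above, DMBA. Its log2 fold change for DMBA was 1.61 ± 0.22 (3.05-fold; edgeR adjusted p = 0.0359).

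The other 4 GBPs did not pass the threshold in DMBA. Gbp3 read 0.557 and 0.342 CPM in Control DMBA, 1.97 and 2.28 for DMBA, 0.209 and 0.137 for Control DMBA TPA, and 1.14 and 1.65 for DMBA/TPA. Both treated groups were separate from both acetone groups, and the value for DMBA was 2.24 ± 0.38 on the log2 scale (edgeR adjusted p = 0.074). Gbp5, which promotes NLRP3 inflammasome assembly in macrophages, read 0.205 and 0.456 CPM in Control DMBA, 1.62 and 1.60 for DMBA, 0.488 and 0.275 for Control DMBA TPA, and 0.826 and 1.49 for DMBA/TPA. Both treated groups again lay above both acetone groups, with 2.27 ± 0.49 on the log2 scale (edgeR adjusted p = 0.139). Gbp9 read 1.32 and 1.11 CPM in Control DMBA, 2.49 and 2.18 for DMBA, 1.88 and 1.29 for Control DMBA TPA, and 0.826 and 1.68 for DMBA/TPA. Its groups outside DMBA overlapped, and the DMBA value was 0.94 ± 0.37 on the log2 scale (edgeR adjusted p = 0.462; 95% interval 0.09 to 1.78). Gbp6 had 1 and 5 counts in Control DMBA, 8 and 10 for DMBA, 3 and 0 for Control DMBA TPA, and 2 and 1 for DMBA/TPA. The ratio of its summed counts, 18 for DMBA against 6 for Control DMBA, was 3.06 after scaling to library size, with a 95% counting interval from 1.17 to 9.43 that covers counting error only.

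The direction was the same in every setting tried, but the calls were not. All 9 fold changes stayed above 0 without any 1 of the 8 libraries. Without Control DMBA 2, DMBA 1 or DMBA 2, however, 0 of the 6 genes passed (edgeR adjusted p from 0.0612 to 0.106, from 0.0603 to 0.145 and from 0.124 to 0.251), although 8 of the 9 tested genes had an unadjusted p under 0.05 each time. Without Control DMBA 1, Gbp2, Iigp1 and Igtp passed (edgeR adjusted p from 0.0389 to 0.0732 over the 6). DESeq2 on all libraries called 8 of the 9, as did edgeR with Control DMBA TPA as the control. Over all tested genes, however, these settings called 428 and 3210 in place of 52. The counts of 8 therefore stand beside a larger background than the count of 6. DMBA 2 lay above DMBA 1 for 8 of the 10 genes, with Gbp5 and Gbp9 the exceptions.

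**Figure D2:**
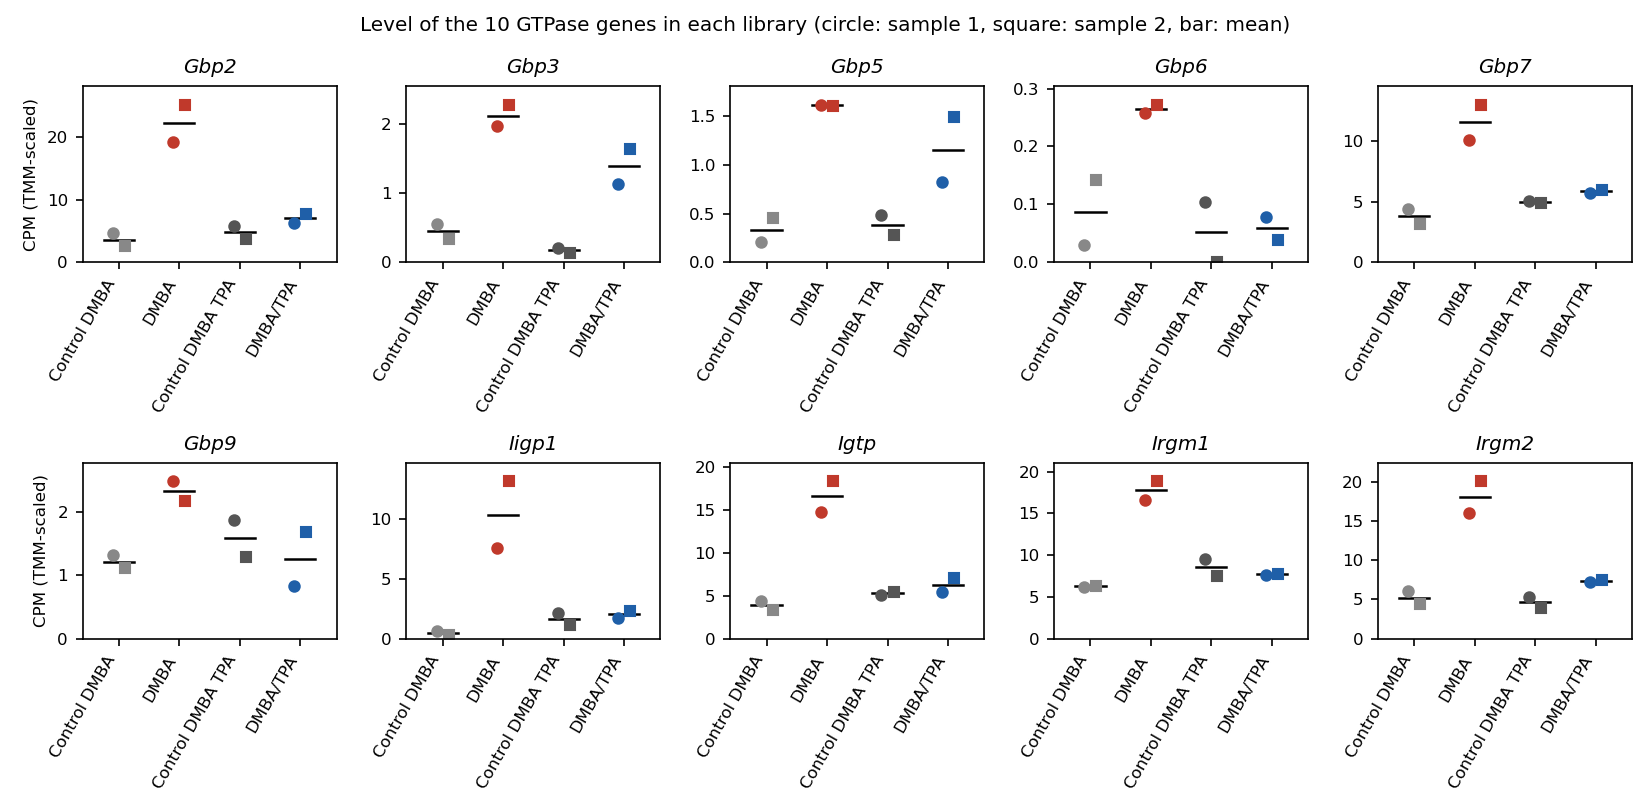
CPM of each of the 10 GTPase genes (y axis, linear from 0, a scale per gene) in the 4 groups (x axis). Circles are sample 1, squares sample 2 and bars the group mean. In every panel both DMBA points lie above the points of the other 6 libraries, and Gbp3 and Gbp5 are also raised in DMBA/TPA.

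No marker of another cell type was called higher in DMBA by edgeR, but only 0.19% of all tested genes were. A lack of such calls in these short lists is near that share and is no result about the cell types. The 16 markers of T and NK cells, the usual sources of interferon gamma, summed to 76.69 and 103.7 CPM in Control DMBA and to 63.37 and 59.96 for DMBA, with none of the 12 tested genes called by edgeR, 8 at an unadjusted p under 0.05 and 1 called higher by DESeq2. The log2 fold changes of these 12 genes ran from -1.36 to 3.17, with 4 above 0. Gzma had 0 counts in both groups. Langerhans and dendritic cell markers summed to 438.5 and 526.0 CPM in Control DMBA and 439.4 and 394.0 for DMBA, and macrophage and monocyte markers to 71.62 and 104.4 against 56.65 and 53.77. Of the 8 tested in each of these 2 lists edgeR called 0, with 1 and 2 at an unadjusted p under 0.05, and DESeq2 called 0 and 1 (lower). Fibroblast markers summed to 1022 and 477.2 CPM in Control DMBA and 68.28 and 81.46 for DMBA, and endothelial markers to 13.28 and 5.646 against 3.361 and 2.827. EdgeR called 2 of 8 fibroblast and 0 of 8 endothelial markers lower, beside 0.0771% of all tested genes. In each list 7 had an unadjusted p under 0.05. DESeq2 called 7 and 3 lower, beside 204 over all tested genes. Control DMBA thus held more RNA of dermal type than DMBA did, and the part of this difference in the GTPase result was not tested.

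**Figure D3:**
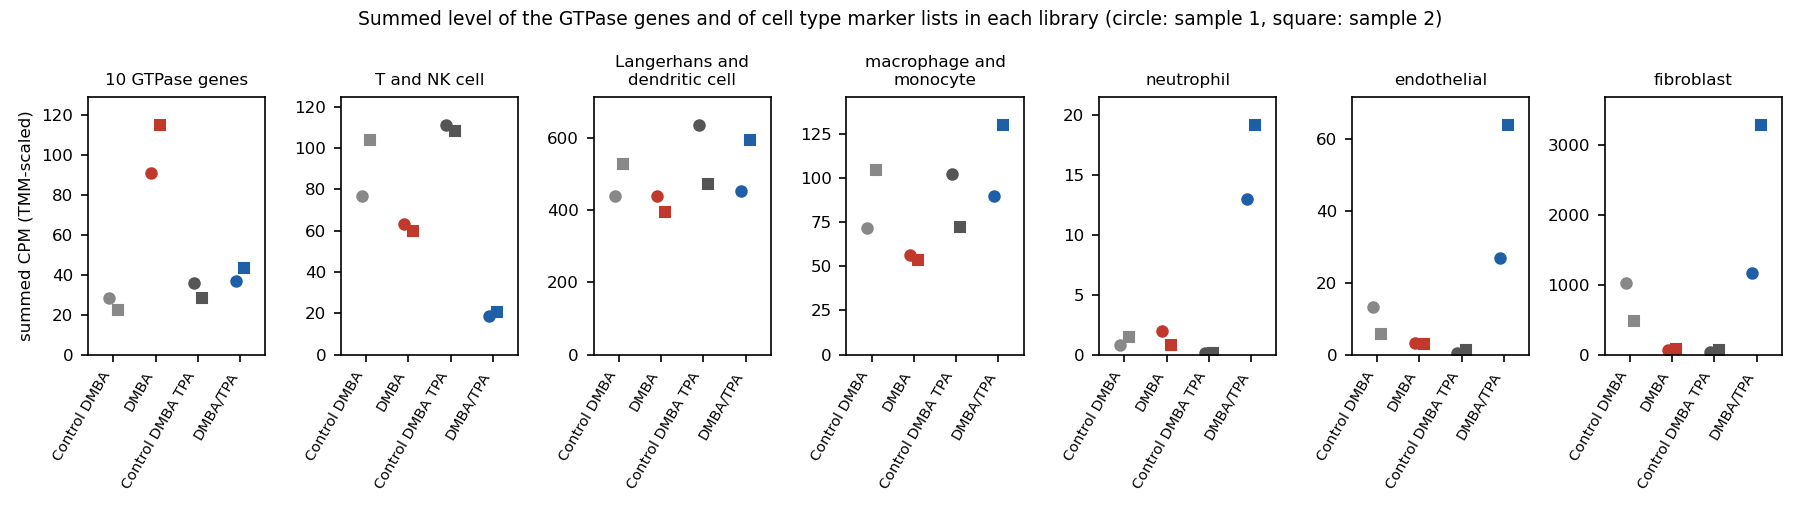
Summed CPM (y axis, linear from 0, a scale per panel) of the 10 GTPase genes and of 6 lists of cell type markers in each library (circle, sample 1; square, sample 2). The GTPase sum is highest in DMBA at 90.71 and 114.9 CPM, whereas the fibroblast, endothelial and neutrophil sums are highest in DMBA/TPA.

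After DMBA followed by TPA, most of the family was near the level of its own acetone group, Control DMBA TPA. Gbp3 and Gbp5 rose, which is 2 of the 9 tested genes, and none fell. Over all genes tested 22.4% were called higher and 18.3% lower in this comparison, so a share of 2 in 9 is near the background and is no result about the family as a group. The median log2 fold change was 0.31, beside -0.003 over all tested genes. Both DMBA/TPA libraries lay above both Control DMBA TPA libraries for 5 of the 9, against 37.6% of all tested genes.

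Gbp3 had a log2 fold change of 3.00 ± 0.45 for DMBA/TPA (8.02-fold; edgeR adjusted p = 0.00219) and was called in each of the 17 alternatives, with adjusted p from 2.11e-05 to 0.0248. The counts behind it were small, at 6 and 5 for Control DMBA TPA and 29 and 42 for DMBA/TPA. Against the other acetone group, where Gbp3 was higher, the value was 1.63. Gbp5 had 1.62 ± 0.50 (3.06-fold; edgeR adjusted p = 0.0341) on 14 and 10 against 21 and 38 counts. Its call was lost in 7 of the 17 alternatives: without DMBA 1 (edgeR adjusted p = 0.0618), DMBA 2 (0.0624), Control DMBA TPA 1 (0.0686), Control DMBA TPA 2 (0.185) or DMBA/TPA 2 (0.197), with the compared groups only (0.0549) and with a replicate block (0.0522). Irgm2, at 0.66 ± 0.23 (edgeR adjusted p = 0.0501), sat at the threshold.

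Of the 6 genes called in DMBA, 5 were close to their own acetone group here. Gbp2 had a log2 fold change of 0.56 ± 0.32 (edgeR adjusted p = 0.194), Iigp1 of 0.31 ± 0.44 (0.598), Gbp7 of 0.24 ± 0.22 (0.408), Igtp of 0.23 ± 0.22 (0.419) and Irgm1 of -0.14 ± 0.17 (0.528). The 95% interval ended at 0.74 for Gbp7, 0.73 for Igtp and 0.25 for Irgm1, so a rise of the size seen in DMBA lay outside it for these 3 genes. The same held for Iigp1, with an interval from -0.70 to 1.33, and for Gbp2, from -0.18 to 1.30. Against the other acetone group, however, Iigp1 had a log2 fold change of 2.17 in DMBA/TPA (edgeR adjusted p = 0.0223); it was called in none of the other alternatives. Gbp9 stood at -0.33 ± 0.38 (0.515). Markers of T and NK cells summed to 111.2 and 108.2 CPM in Control DMBA TPA and 18.53 and 20.56 for DMBA/TPA, neutrophil markers to 0.1743 and 0.1099 against 12.98 and 19.19 (with Ly6g and Elane at 0 counts throughout), and fibroblast markers to 36.51 and 65.63 against 1177 and 3294. Of the 12 tested T and NK cell markers edgeR called 8 lower and 4 higher, so the sum does not describe each marker. Over all tested genes 18.3% were called lower and 22.4% higher. The part of these cell types in the GTPase values of DMBA/TPA was not tested.

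**Figure D4:**
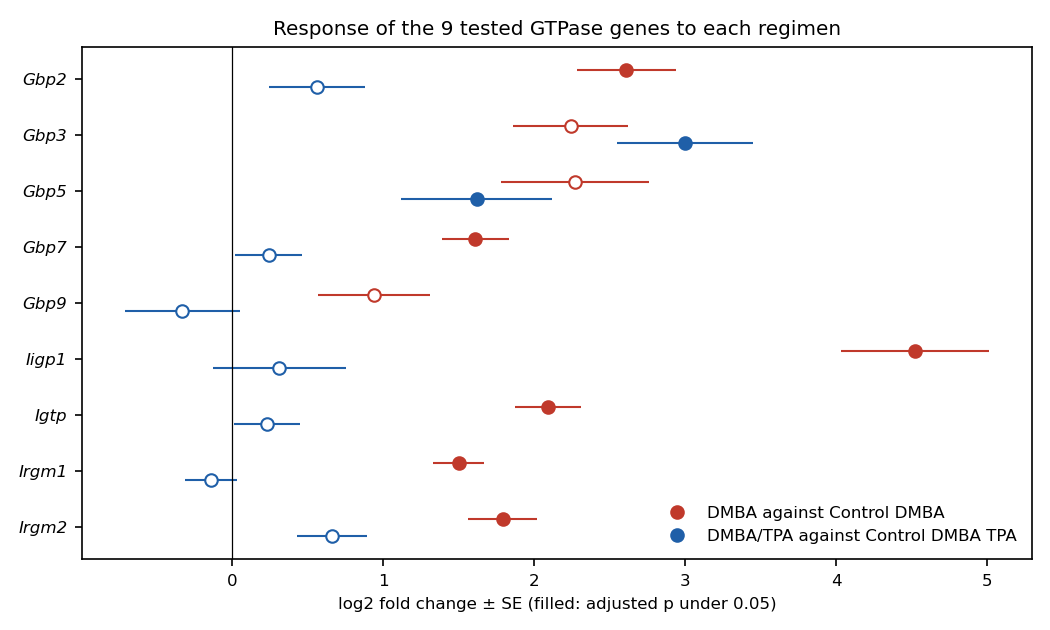
Log2 fold change (x axis) with its SE of the 9 tested GTPase genes in DMBA (red) and in DMBA/TPA (blue), each against its own acetone group. Filled points have an adjusted p under 0.05. All 6 filled red points lie to the right of the blue point of the same gene, and Gbp3 and Gbp5 are the filled blue points.

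The difference between the regimens was tested by subtracting the log2 response to DMBA from the log2 response to DMBA/TPA. It was below 0 at an adjusted p under 0.05 for 5 of the 9 genes and above 0 for none. Over all tested genes 3.95% were called lower and 8.7% higher. The differences were -4.21 ± 0.66 for Iigp1 (edgeR adjusted p = 0.00877), -2.05 ± 0.46 for Gbp2 (0.0283), -1.86 ± 0.31 for Igtp (0.0105), -1.64 ± 0.24 for Irgm1 (0.00734) and -1.37 ± 0.31 for Gbp7 (0.0292). Irgm2 had -1.13 ± 0.32 (0.0556), Gbp9 -1.27 ± 0.53 (0.143), Gbp5 -0.65 ± 0.71 (0.562) and Gbp3 0.77 ± 0.59 (0.4). The median was -1.37, beside 0.004 over all tested genes. The differences depended on which acetone group served as control. With their roles exchanged, none of the 5 genes passed (edgeR adjusted p from 0.0862 to 0.701, 5 of the 9 tested genes at an unadjusted p under 0.05) and Irgm2 was the only gene of the family that did. The difference was then -0.48 for Iigp1, -1.46 for Irgm2, and -1.99 in place of 0.77 for Gbp3 (edgeR adjusted p = 0.0754). With all 4 acetone libraries as a single control 4 genes passed, 3 of them among the 5. Leaving out single libraries gave 2 to 6 genes, with 2 without DMBA 2 and 3 without Control DMBA 2, DMBA 1 or Control DMBA TPA 1. The regimens also differ in harvest day, which cannot be told apart from the effect of TPA.

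The acetone groups themselves were compared because each serves as a background. No GTPase gene was called by edgeR, while 6.25% of all tested genes were; 3 of the 9 had an unadjusted p under 0.05 and DESeq2 called 1. The largest values were those of Iigp1, 1.86 ± 0.50 on the log2 scale higher in Control DMBA TPA (edgeR adjusted p = 0.0671), and of Gbp3, -1.38 ± 0.48 (0.127). Irgm1 had 0.44 (0.154). The order of the 4 groups was DMBA highest for all 10 genes and DMBA/TPA second for 7, with Gbp6, Gbp9 and Irgm1 as the exceptions. Below DMBA, neighbouring groups often overlapped, as for Igtp, where the ranges of Control DMBA TPA and DMBA/TPA crossed.

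Within the family, Igtp and Irgm2 followed the mean profile most closely, each with a root mean square difference of 0.20 in log2 CPM over the 8 libraries, followed by Gbp2 (0.25), Gbp7 (0.28) and Irgm1 (0.37). Gbp5 (0.48), Gbp9 (0.59), Gbp3 (0.74) and Iigp1 (0.84) departed more. Iigp1 departed because its range was wider, and Gbp3 because it was low in Control DMBA TPA and high in DMBA/TPA. These values share libraries and, for Igtp and Irgm2, exons, and they are a description with no test.

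**Figure D5:**
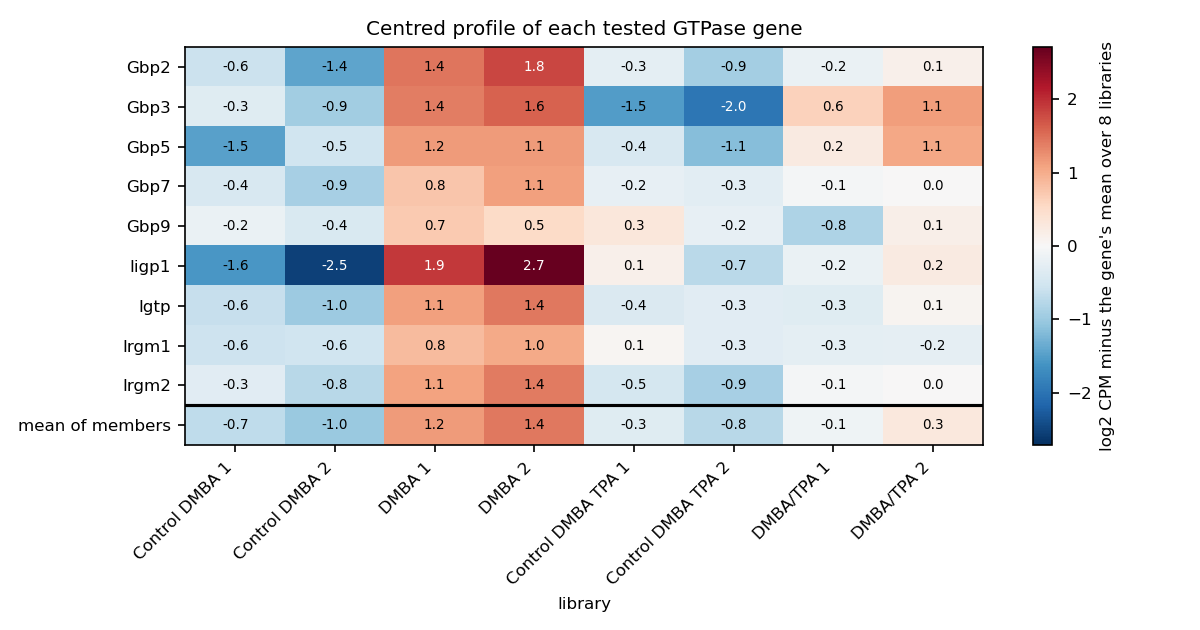
Log2 CPM of each tested GTPase gene (rows) in the 8 libraries (columns), as the difference from the mean of that gene, with the mean over the 9 genes in the bottom row. The DMBA columns are positive for every gene, and the mean row is 1.16 and 1.42 there and at most 0.28 elsewhere.

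Few reads came from interferon genes. None of the 21 ligand genes listed passed the filter, and 15 had 0 counts in all libraries, Ifnb1, Ifne, Ifnl2 and Ifnl3 among them. Ifng, which encodes interferon gamma, had 2 and 1 counts in Control DMBA, 4 and 2 for DMBA, 0 and 0 for Control DMBA TPA, and 3 and 3 for DMBA/TPA, too few to compare. No receptor gene of 6 was called in DMBA by edgeR (0 at an unadjusted p under 0.05, 0 by DESeq2). Over all tested genes 0.19% were called higher there and 0.0771% lower. Ifngr1, the ligand-binding chain of the interferon gamma receptor, read 79.9 and 86.6 CPM in Control DMBA, 75.7 and 77.9 for DMBA, 118.1 and 116.5 for Control DMBA TPA, and 58.4 and 55.8 for DMBA/TPA. It was lowest in DMBA/TPA, where it fell by 1.04 ± 0.09 on the log2 scale (edgeR adjusted p = 0.000419), and it differed between the acetone groups (0.49 ± 0.09; 0.0211). In the same comparison Ifnar2, a type I receptor chain, rose by 0.91 ± 0.22 (0.0126), Il10rb by 0.63 ± 0.18 (0.0221) and Ifngr2 by 0.36 ± 0.11 (0.0364). Of these 3 rises, only that of Il10rb was called against the other acetone group, and only that of Ifnar2 with the compared groups only. Among the 6 receptor genes 3 rose and 1 fell in DMBA/TPA, beside 22.4% and 18.3% of all tested genes.

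Among the genes of JAK-STAT and IRF signalling, Stat2, which carries type I interferon signals to ISRE elements, read 35.4 and 40.0 CPM for Control DMBA, 71.5 and 79.0 for DMBA, 47.9 and 41.1 for Control DMBA TPA, and 42.1 and 40.0 for DMBA/TPA. Only the DMBA libraries stood out, by 1.00 ± 0.12 on the log2 scale (edgeR adjusted p = 0.022). Its response in DMBA/TPA was lower (difference -1.11 ± 0.17; 0.00823). The median log2 fold change of the 16 genes in DMBA was 0.25, with 13 of them above 0 and a lowest value of -0.18. None was called lower by edgeR, beside 0.0771% of all tested genes. Irf7 had 1.70 ± 0.26 (0.0545), Irf9 0.87 ± 0.14 (0.0672) and Irf1, the activator of many GBP genes, 0.94 ± 0.17 (0.0929) in DMBA. In DMBA/TPA 4 genes of this list rose and 3 fell, which is near the shares over all tested genes (22.4% and 18.3%) and no result about the list; Irf7 rose by 1.10 ± 0.27 (0.0132), and Irf1 by 0.58 ± 0.18 (0.0302) against its own acetone group but stood at -0.18 against the other. Beside 0.19% of all tested genes called higher and 0.0771% lower, edgeR called 0 of 9 tested feedback inhibitors for DMBA. Of these 9, 1 had an unadjusted p under 0.05 and 1 was called by DESeq2. In DMBA/TPA 4 rose and 2 fell, beside 22.4% and 18.3% of all tested genes, among them Socs1 at 1.32 ± 0.30 (0.0107), Irf2bp2 at 0.46 ± 0.11 (0.0108) and Usp18 at -1.61 ± 0.26 (0.00298). Cish had 0.38 ± 0.26 in DMBA (0.795) and -0.25 ± 0.26 in DMBA/TPA (0.454). Usp18 also differed between the acetone groups, by 1.32 ± 0.26 (0.0259).

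Of 20 tested interferon gamma targets edgeR called 1 higher in DMBA and none lower (median log2 fold change 0.46). Over all tested genes 0.19% were called higher and 0.0771% lower. An unadjusted p under 0.05 was found for 14 of the 20, and DESeq2 called 8 higher, beside 224 over all tested genes. The gene called by edgeR was Cxcl9, a chemokine for T cells, at 0.704 and 0.485 CPM in Control DMBA, 3.36 and 4.00 for DMBA, 0.558 and 0.632 for Control DMBA TPA, and 2.32 and 2.23 for DMBA/TPA. Both treated groups lay above both acetone groups, and the log2 fold changes were 2.62 ± 0.29 for DMBA (edgeR adjusted p = 0.0187) and 1.92 ± 0.30 for DMBA/TPA (0.00251). The antigen-processing genes Psmb9 (0.74 ± 0.14; 0.102), Psmb8 (0.62 ± 0.12; 0.11) and Tap2 (0.56 ± 0.10; 0.0781) did not pass in DMBA, where 20 of the 20 fold changes were above 0. In DMBA/TPA 5 of this list rose and 2 fell, again near the 22.4% and 18.3% of all tested genes. Of 22 tested type I antiviral genes 9 rose in DMBA and none fell (median 1.55), beside the same shares of 0.19% and 0.0771%. Here 16 had an unadjusted p under 0.05, and DESeq2 called 15 higher. In DMBA/TPA 8 rose and 2 fell (median 0.90), beside 22.4% and 18.3% of all tested genes. Oasl2 rose by 3.30 ± 0.31 (0.0165) in DMBA and by 1.24 ± 0.31 (0.0141) in DMBA/TPA, and Isg15, a ubiquitin-like modifier, by 2.47 ± 0.29 (0.0205) and 1.33 ± 0.29 (0.00926). Ddx60 rose by 2.12 ± 0.22 for DMBA (0.0168) and stood at -0.09 ± 0.21 for DMBA/TPA (0.768), but differed by 1.19 ± 0.22 between the acetone groups (0.0221). Ifi44 had 0 counts in Control DMBA and read 0.808 and 1.17 CPM in DMBA (edgeR adjusted p = 0.0253). Of the dynamin-like antiviral GTPases, both tested rose in DMBA/TPA by edgeR (1 by DESeq2) and neither passed in DMBA by edgeR (2 at an unadjusted p under 0.05, 1 by DESeq2). Mx1 had 2.67 ± 0.42 for DMBA (0.057) and rose by 2.25 ± 0.44 for DMBA/TPA (0.00581), and Mx2 had 1.02 ± 0.27 (0.204) and 0.84 ± 0.28 (0.0427). The Mx2 call held in 5 of 17 alternatives (edgeR adjusted p from 0.0341 to 0.509 over those run) and was lost without DMBA 1, DMBA 2, Control DMBA TPA 1, Control DMBA TPA 2 or DMBA/TPA 2. Against the other acetone group its value was 0.27. The difference of responses was not called for either (Mx1 -0.42 ± 0.60, 0.663; Mx2 -0.18 ± 0.39, 0.784). Without DMBA 1 or without DMBA 2, 0 of the 12 other genes that the naming rule covers and that were called in DMBA passed (edgeR adjusted p from 0.0988 to 0.168 and from 0.108 to 0.31). Without Control DMBA 1 Oasl2 passed, and without Control DMBA 2 Oasl2 and Ifitm3 did.

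The remaining GBP and IRG genes were mostly rare transcripts. None of the 4 other GBP genes and 7 other IRG genes tested was called in DMBA by edgeR, with 1 and 3 at an unadjusted p under 0.05 and 0 and 1 called by DESeq2. Over all tested genes edgeR called 0.19% higher and 0.0771% lower, so a lack of calls in these short lists is no result about them. Gbp10 had 2.24 ± 0.44 (edgeR adjusted p = 0.115), Gm12250 2.78 ± 0.45 (0.0658), Gm4841 3.87 ± 0.84 (0.142), Gbp2b 3.90 ± 1.67 (0.53), Gbp8 1.38 ± 0.87 (0.758), Ifi47 1.44 ± 0.45 (0.31), Tgtp2 0.87 ± 0.74 (0.883) and Gbp4 0.45 ± 0.27 (0.734). Irgq had 0.16 ± 0.20 (0.954), 9930111J21Rik1 -0.83 ± 0.40 (0.604) and 9930111J21Rik2 -0.45 ± 0.31 (0.802). In counts, Gm4951 had 0 and 0 for Control DMBA, 5 and 21 for DMBA, 0 and 0 for Control DMBA TPA, and 3 and 4 for DMBA/TPA. F830016B08Rik had 1 and 1, 7 and 21, 2 and 2, and 2 and 4 counts in the same order of groups. Gbp2b, at 0 and 1 counts in Control DMBA, had 1 and 18 for DMBA, 0 and 0 for Control DMBA TPA and 2 and 9 for DMBA/TPA, so its high values came from the sample numbered 2 of each treated group. In DMBA/TPA Irgq, the most abundant of these genes, rose by 1.00 ± 0.20 (0.00667), while 9930111J21Rik1 fell by 1.30 ± 0.41 (0.036) and 9930111J21Rik2 fell by 0.95 ± 0.31 (0.0378). The Irgq call held in 16 of 17 alternatives, lost without Control DMBA TPA 1 (0.91; edgeR adjusted p = 0.0569), that of 9930111J21Rik1 in 7 and that of 9930111J21Rik2 in 9. Both Rik genes lost their call without Control DMBA TPA 1, DMBA/TPA 1 or DMBA/TPA 2, and 9930111J21Rik1 also without DMBA 1 or DMBA 2. Against the other acetone group 9930111J21Rik2 stood at -0.13. No other GBP gene of the 4 was called there, with 2 at an unadjusted p under 0.05.

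Among partners of these GTPases, 0 of 14 inflammasome genes were called in DMBA by edgeR (3 at an unadjusted p under 0.05, 0 by DESeq2). Over all tested genes 0.19% were called higher in DMBA and 0.0771% lower. In DMBA/TPA 7 of the 14 rose and 1 fell, where 22.4% of all tested genes rose and 18.3% fell. Casp1, the inflammatory caspase, rose there by 1.28 ± 0.21 (edgeR adjusted p = 0.0028) and Gsdmd, the pore former it cleaves, by 1.92 ± 0.34 (0.00395), while the sensor gene Nlrp1a fell by 2.67 ± 0.29 (0.000753). Nlrp1b stood at -0.73 ± 0.28 (0.072). Of 15 autophagy and ubiquitin genes 1 rose in DMBA, Rnf213, an E3 ligase that coats intracellular microbes, at 119.1 and 104.7 CPM in Control DMBA, 197.1 and 207.8 for DMBA, 120.8 and 128.5 for Control DMBA TPA, and 121.7 and 127.7 for DMBA/TPA. The 6 libraries outside DMBA were close together, and the log2 fold change was 0.86 ± 0.10 (0.0205). Trim21, a cytosolic antibody receptor and ligase, had 0.42 ± 0.14 (0.321) and Traf6, a signalling ligase, -0.18 ± 0.11 (0.712). In DMBA/TPA 6 genes of this list rose and none fell, against 22.4% and 18.3% of all tested genes. Gabarapl1 was among them at 0.53 ± 0.11 (0.00631), which stood at -0.07 against the other acetone group.

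By a fixed measure of likeness, the root mean square difference of centred log2 CPM from the mean profile of the 9 GTPase genes over the 8 libraries, the 8 nearest of 10949 eligible genes included Cpt1c (0.30), Ptp4a3 (0.38), Ifitm3 (0.43), Oas1b (0.43), Ddx60 (0.43), Irf7 (0.44) and Abcg2 (0.44). The median over eligible genes was 0.86. Cpt1c, a carnitine palmitoyltransferase family member, read 9.62 and 7.56 CPM in Control DMBA, 20.3 and 27.0 for DMBA, 7.71 and 7.42 for Control DMBA TPA, and 11.2 and 10.8 for DMBA/TPA. It was closer to the mean profile than Irgm1, Gbp5, Gbp9, Gbp3 and Iigp1 were. Ptp4a3, a protein tyrosine phosphatase, read 16.6 and 18.2, 51.2 and 53.1, 11.4 and 13.9, and 24.9 and 35.8 CPM in the same order of groups. It was high in DMBA and intermediate in DMBA/TPA, and rose in both (1.58 ± 0.18, edgeR adjusted p = 0.0205; 1.26 ± 0.18, 0.00196). Since likeness was computed on the same libraries, these genes carry no test of shared regulation.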

How the data were processed

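RNA-seq libraries were made from ribosome-depleted total RNA with a directional kit, per the labels' protocols, and the authors deposited raw read counts for each Ensembl gene. The submitters' processing notes name cutadapt, FastQC, Bowtie2, TopHat2 and the mm10 build. Versions of these tools, the program that counted, the annotation and the strand option are not given in the sources used. The 5 summary rows of each file were removed; genes held 35.24% to 43.35% of the summed rows and ambiguous reads 1.252% to 1.488%. Of 55487 gene rows, 99.53% matched GENCODE M21. The gene counts of 26300400 to 36002886 per library limit the precision of the rarest genes, and intervals on counts cover counting error only.

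Genes were filtered with filterByExpr (minimum count 10, total 15), scaled by TMM (factors 0.911 to 1.047) and fitted with a mean per group over all 8 libraries with the edgeR 4.0.16 quasi-likelihood test (R 4.3.3) and Benjamini-Hochberg adjustment over 19450 genes and a threshold of 0.05. SEs were derived from the F statistic, and the difference of responses is DMBA/TPA minus DMBA, each against its own acetone group. Alternatives were RLE and total-count scaling, no filter, DESeq2 1.42.0, limma 3.58.1 voom, a replicate block by sample number, fits restricted to the groups compared, pooled or exchanged acetone groups, a 2-fold minimum, Igtp and Irgm2 summed, and leaving out each library. Crossed sample numbers, and the alternatives for other genes and lists, were added after seeing the data. Libraries of a group differed beyond sampling noise (chi-square per degree of freedom 11 to 65.3). The pipeline was tested on simulated data. The 10 genes, the gene lists and the tests were chosen with earlier results of these data known. Named were the 10 genes, the tested members of the other GBP, IRG and large GTPase lists, up to 4 genes per other pathway list with the smallest adjusted p in DMBA, Ifng, Irf1 and Stat2, and the 8 genes nearest in profile with a mean of at least 5 CPM (log2 CPM with prior count 2); untested genes with counts, and ligands at 0, were named after their values were seen. A gene that the rule names is not reported here.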

Additional observations from a re-analysis of the deposited data

Results flagged for a closer look

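The responses to the 2 regimens differed by the test of the difference itself for 5 of the GTPase genes. On the log2 scale, the response to DMBA/TPA less that to DMBA was -4.21 for Iigp1, -2.05 for Gbp2, -1.86 for Igtp, -1.64 for Irgm1 and -1.37 for Gbp7. Both DMBA libraries lay above the other 6 libraries for these 5 genes, but also for all 10 GTPase genes and for 5.06% of all tested genes. With the acetone groups exchanged, none of the 5 differences passed (edgeR adjusted p from 0.0862 to 0.701). The regimens differ in harvest day and in their acetone groups as well as in TPA, and these cannot be told apart. Groups of 2 libraries are too small for a check of single outlying libraries.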

How the results depend on the processing

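The count of GTPase genes called in DMBA was 6, and 0 with the sample number as a replicate block (8 of 9 at an unadjusted p under 0.05), 3 with all acetone libraries as a single control and 0 to 7 when each library was left out. In DMBA/TPA the count of 2 became 1 with the replicate block and with the compared groups only, and 1 to 3 over the left-out libraries. The difference of responses, 5, became 1 with the acetone groups exchanged and 2 to 6 over the left-out libraries; the replicate block kept it at 5. Between the acetone groups the count of 0 became 1 without the filter and with DESeq2, and 0 to 1 over the left-out libraries. The labels do not say whether the sample numbers pair the libraries. Deviations of same-numbered libraries correlated at -0.15 between Control DMBA and DMBA and at -0.03 between Control DMBA TPA and DMBA/TPA. Neither value was positive, but with 2 libraries per group they cannot decide whether libraries were paired. With the DMBA numbers crossed, a setting added after seeing the data, 6 genes were called. That count does not set aside the 0 calls of the replicate block. No GTPase gene that was called changed direction under any alternative. With the acetone groups exchanged, other genes did: in DMBA/TPA Tap2 stood at -0.02, Ddx60 at 1.10, Gabarapl1 at -0.07 and Irf1 at -0.18, and in the difference Ifngr1 at 0.07, Usp18 at 0.09, Ddx60 at 0.17 and Gabarapl1 at -0.42. Over all genes, the 52 called in DMBA became 661 without the filter, 428 with DESeq2, 5 with the replicate block, 3210 with the other acetone group and 4 to 176 over the left-out libraries; the 7917 in DMBA/TPA became 4632 with pooled and 3766 with exchanged acetone groups and 3704 to 8901 over the left-out libraries; the 2460 of the difference became 4041 without the filter, 1106 with pooled acetone groups and 467 to 5359; and the 1216 between acetone groups became 2451 without the filter, 2087 with DESeq2, 1955 with these groups only and 43 to 2598. Scaling by total counts called 3675 higher and 4489 lower in DMBA/TPA, in place of 4356 and 3561. The causes of these changes were not tested. Each left-out fit also had fewer libraries. Depth limits Gbp6, the ligands and the rarest GBP and IRG genes.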
